A study of Mus musculus with 14 samples.

Results

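The 70 genes described here are those of the extra chromosome segment of Ts1Cje mice that remain after 20 of its genes are left out, among them the interferon receptor genes, Rcan1, Dyrk1a, Runx1, Son, Ets2, Erg, Synj1 and Itsn1. Ts1Cje mice, which model Down syndrome, carry an additional copy of this segment of distal chromosome 16. The genes were chosen by position, as array probes with a gene symbol that the deposited annotation places within a stretch of 7.94 Mb of distal chromosome 16 (mm9) without those 20. This gave 92 probes, of 55681 on the array, and the measured members run from Hunk (chr16:90499577-90499636) to C2cd2 (chr16:98080805-98080864). A gene counted as measured where some group had a probe of it well above background on all of its arrays, which held for 44 of the 70 genes and for 14158 genes of the whole array.

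Gene expression was measured on 14 Agilent 1-colour arrays, 1 array per muscle sample. The groups were EDL WT and EDL Ts1Cje, with 3 samples each, and soleus WT and soleus Ts1Cje, with 4 samples each. All mice had the C57BL/6 background, the WT animals were disomic littermates of the Ts1Cje animals, no age or treatment was given, and the only allele named as setting the groups apart was the Ts1Cje segment. The EDL (extensor digitorum longus) is a fast-twitch and the soleus a slow-twitch muscle of the hind limb. Every array was made from 25 ng of RNA, between 41.3% and 52.9% of its probes were well above background, and 0 were saturated. Summed signals of 6 fast-fibre markers were 9030 to 13200 times the array's 75th percentile in the EDL and 1730 to 3390 times in the soleus, and those of 6 slow-fibre markers 35.4 to 438 and 5880 to 9100 times, as the muscle labels say. The fast-fibre sum was lower in soleus Ts1Cje (1730 to 2040) than in soleus WT (2300 to 3390), with 3 of 6 markers called lower. The labels do not tie an EDL to a soleus of the same animal, and p-values measure the spread between these samples. Whole muscle was measured, so fewer cells of a type and less RNA per cell cannot be told apart. Precision is limited by how many arrays there are.

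A gene present in 3 copies instead of 2 would be transcribed 1.5 times as much if each copy were read alike, a log2 change of 0.585. Cells can depart from this proportion for a single gene through feedback on its transcription or RNA decay. A gene that a tissue hardly reads gives little RNA whatever its copy number. The members are of many kinds: subunits of mitochondrial machines, enzymes of purine and lipid-anchor synthesis, assembly and replication factors, channels and transporters, and transcription factors of brain and embryo. Most have counterparts on the human chromosome that is trisomic in Down syndrome.

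The promoters of members that share a start region are shown first, because these neighbours can be compared within 1 stretch of DNA. The sequences are RefSeq promoter windows of GRCm38.p6, trimmed to the bases upstream of the start, and capitals mark the motif GGGCGG or its reverse complement CCGCCC (a GC box, bound by Sp factors) or CCGGAA or its reverse complement TTCCGG (the core of an ETS site). Slc5a3 and Mrps6, on the + strand with starts 14 bases apart, share the 200 bases at chr16:92058122-92058321, which hold 24 CG pairs.
Slc5a3 and Mrps6: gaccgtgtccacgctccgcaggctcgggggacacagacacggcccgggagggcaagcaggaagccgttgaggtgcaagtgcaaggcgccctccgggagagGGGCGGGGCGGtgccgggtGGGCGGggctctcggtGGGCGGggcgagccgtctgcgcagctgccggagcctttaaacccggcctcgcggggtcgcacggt
Donson (- strand) and the predicted gene Gm10785 (+ strand) start 170 bases apart, and the 169 bases between them, at chr16:91688729-91688897 on the + strand, hold 22 CG pairs.
Donson and Gm10785: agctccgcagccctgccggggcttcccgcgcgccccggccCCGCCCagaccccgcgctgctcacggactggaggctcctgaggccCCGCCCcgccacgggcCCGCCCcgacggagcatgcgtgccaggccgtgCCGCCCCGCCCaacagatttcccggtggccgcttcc
Pigp (- strand) and Ttc3 (+ strand) have starts as near as 29 bases to each other, with the 28 bases at chr16:94370711-94370738 between them, in which none of these motifs was found.
Pigp and Ttc3: gggggcgacgcggcgactgcgcatgcgc
The start-proximal 150 bases of Gart, Atp5o and Psmg1, each on the - strand, are given because these genes were among the most precisely measured members. They lie at chr16:91646973-91647122, chr16:91931631-91931780 and chr16:95990961-95991110.
Gart: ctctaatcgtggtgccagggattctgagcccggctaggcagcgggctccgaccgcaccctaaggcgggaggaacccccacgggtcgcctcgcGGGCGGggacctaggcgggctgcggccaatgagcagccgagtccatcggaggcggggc
Atp5o: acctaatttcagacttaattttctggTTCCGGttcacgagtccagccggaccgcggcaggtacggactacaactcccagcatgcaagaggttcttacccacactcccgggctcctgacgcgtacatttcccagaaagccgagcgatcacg
Psmg1: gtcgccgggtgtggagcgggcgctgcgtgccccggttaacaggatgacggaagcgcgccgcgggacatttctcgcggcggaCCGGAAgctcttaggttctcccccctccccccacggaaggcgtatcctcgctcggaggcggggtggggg

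RefSeq windows of 300 bases (250 before the start) were found for 44 of the 70 members, and where a gene had several, the one with most CG pairs was taken. These windows held a median of 23.5 CG pairs, beside 8 over all 27026 genes with a window. A GC box was present in 54.5% of the members' windows and in 37.3% of all windows, and an ETS core in 31.8% and 15.6%. The 11 windows of members called in the mean of both muscles had a median of 28 CG pairs, and TATAAA or its reverse complement TTTATA was in 0 of them. A GC box was in 63.6% of these windows and in 65.0% of those of members measured but not called. Among 8 windows of members whose change lay below the 3-to-2 proportion (described below), the median was 10 CG pairs and 3 (37.5%) held TATAAA or TTTATA, against 13.7% of all windows. These 3 were 1810053B23Rik, Kcnj15, which was below background in the EDL, and Lca5l, whose probes disagreed. The windows of all genes include many genes not measured in these muscles, and these matches are letters in a window, not binding sites.

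The first comparison asked how far each member differed with genotype in each muscle. Most members with a gene name were higher in Ts1Cje, and the median difference was near the proportion of copies. In the EDL 35 of 44 measured members were higher in Ts1Cje, with a median log2 change of 0.51 (1.42-fold, quartiles 0.10 and 0.60), while the median over all 14158 genes was 0.00. In the soleus 35 of 44 were higher, with a median of 0.60 (1.52-fold, quartiles 0.09 and 0.69) beside 0.07 over all genes. Both counts and medians describe measured members, among them Mx2 and Kcnj15, which passed only through a Ts1Cje group, and the EDL value of Kcnj15 lies below background. Without the filter on dim probes, over all 70, they were 0.31 and 0.11, and with normexp background correction (offset 50) 0.24 in each muscle. That offset adds 50 to every spot, where the 75th percentile of an array's signal was 62.4 to 143.8. Adding it shrinks log2 changes by arithmetic, most for dim probes. Levels here are log2 of a probe's signal over the 75th percentile of its array, a change is a difference of group means of such levels, and errors of a change are SE from the limma fit on all 14 arrays.

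Members were called at a limma adjusted p under 0.05 over all genes. In the soleus 9 of 44 rose and 0 fell, where 0.177% of all genes were called higher. In the EDL 0 of 44 were called, where 0.00706% of all genes were called higher, and 24 members had an unadjusted p under 0.05 against 408 of all 14158 genes. For the mean of both muscles, which rests on 7 arrays against 7, 13 of 44 rose and 0 fell, where 0.261% of all genes were called higher. The fit takes these arrays as independent. If an EDL and a soleus came from the same animal, the SE of this mean could be too small. The count in the soleus was 2 with normexp (1 of the 9 among them), 3 with the slide as a block, and 0 within slide 2, with the soleus fitted alone, with replicate numbers as a block or with no filter on dim probes. It was 0 without WT replicate 1, 1 without WT replicate 3 or 4 or Ts1Cje replicate 2 or 3, 3 without Ts1Cje replicate 1 or 4, and 5 without WT replicate 2, while the changes of the 9 members stayed between 0.54 and 1.21 in the fits that left out 1 array. For the mean of both muscles the 13 became 8 without EDL WT replicate 1, EDL Ts1Cje replicate 3 or soleus Ts1Cje replicate 3, 6 with normexp, and 8 with no filter. With replicate numbers as a block 0 of the 13 stayed called (limma adjusted p 0.0836 to 0.239) and 1 other member was called. With that block for the EDL alone, where same-numbered arrays deviated together, 7 of the 9 stayed called in the soleus (limma adjusted p up to 0.0694) and 10 of the 13 in the mean of both muscles (up to 0.0852). No share over all genes is given for these alternatives, so a fall in calls cannot be read as particular to the members. Beside the soleus counts, the summed signal of 3 measured red blood cell markers was 77.5 to 90.6 in WT and 112 to 138 in Ts1Cje, and fast-fibre markers were lower, as given above. Their part in the members' values was not tested.

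Every Ts1Cje array stood above every WT array for 22 of 44 members in the EDL, where this held for 2.83% of all genes. In the soleus it held for 24 members, against 6.11% of all genes, and in both muscles for 19, against 0.565%. These 19 were the 13 called members and Urb1, Paxbp1, Cryzl1, Setd4, Hlcs and Bace2. For 0 of 44 members did every Ts1Cje array stand below every WT array in a muscle. Over all 14158 genes this held for 393 in the EDL and 324 in the soleus. These shares are small, so a count of 0 among 44 is not a result about the members.

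**Figure D1:**
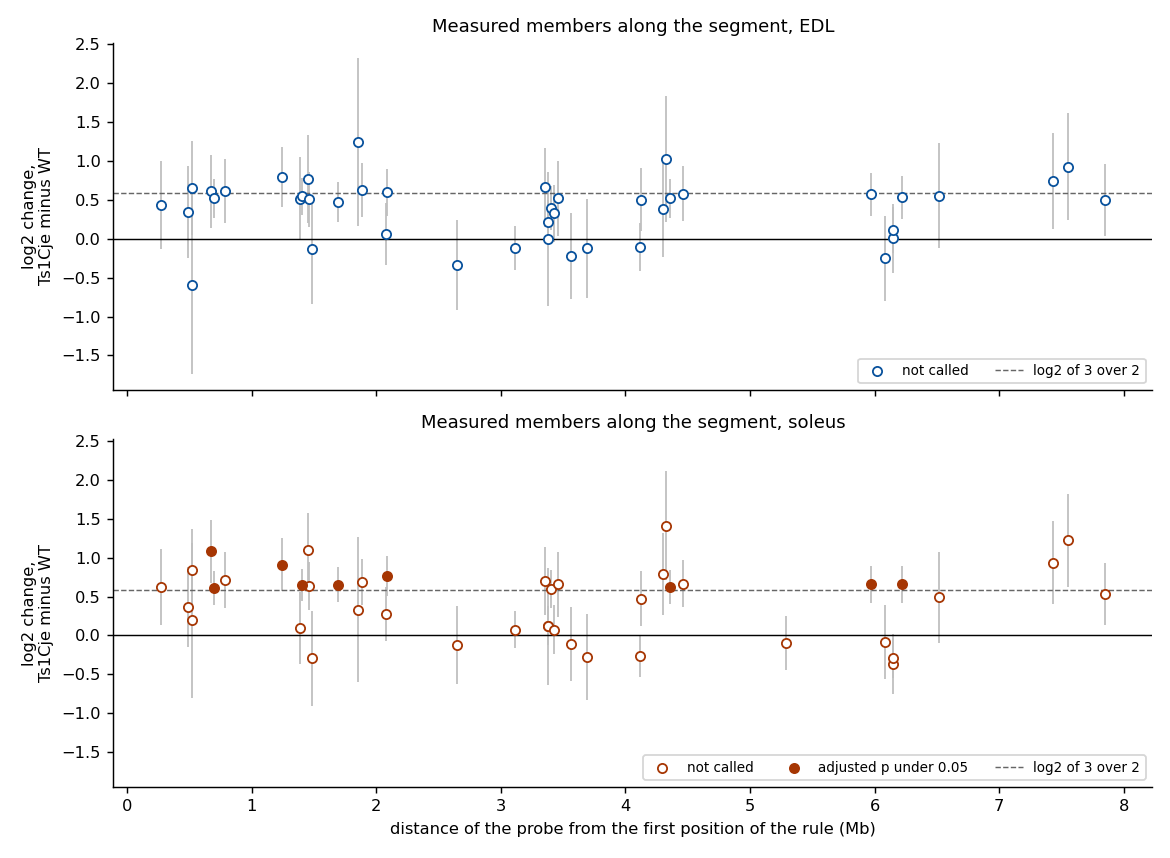
Log2 change (Ts1Cje minus WT, y axis) of each measured member against the distance of its probe from the first position of the segment in Mb (x axis), with 95% intervals, for the EDL (43 members, Kcnj15 not shown because it was below background) and the soleus (44 members). Filled points had a limma adjusted p under 0.05, which held for 0 members in the EDL and 9 in the soleus, and most points lie near the dashed line at log2 of 3 over 2, with a group near 0 between 2 and 4 Mb and another near 6 Mb.

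Along the segment the changes formed no steady slope. In the first 2 Mb, 16 of 21 members were measured and their median change in the mean of both muscles was 0.58, with 7 called. From 2 to 4 Mb, 12 of 17 were measured, the median was 0.17 and 2 were called. From 4 to 6 Mb, 8 of 12 were measured, the median was 0.58 and 3 were called, and from 6 to 8 Mb, 8 of 20 were measured, the median was 0.52 and 1 was called. The stretch from 2 to 4 Mb holds the clone and predicted genes Gm7894, 1810053B23Rik, Gm9510 and 2310043M15Rik beside Cbr1 and Cldn14. It also holds Smim11 at 2.08 Mb and Setd4 at 3.35 Mb, each with 0.68, so high and low members alternate within this stretch.

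The mitochondrial members are Atp5o, the oligomycin-sensitivity subunit that joins the catalytic head of ATP synthase to its stalk, and Mrps6, a protein of the small mitochondrial ribosomal subunit. EDL levels of Atp5o were 7.07, 7.24 and 7.09 in WT and 7.71, 7.46 and 7.64 in Ts1Cje. Soleus levels of Atp5o were 6.90, 7.28, 7.17 and 7.08 in WT and 7.64, 7.77, 7.75 and 7.88 in Ts1Cje. The genotypes did not overlap in either muscle. Atp5o (probe chr16:91925542-91925601, mm9) had a change of 0.47 ± 0.12 in the EDL and rose by 0.65 ± 0.10 in the soleus (limma adjusted p = 0.0219). EDL levels of Mrps6 were 2.81, 2.76 and 3.26 in WT and 3.46, 3.55 and 3.70 in Ts1Cje. Soleus levels of Mrps6 were 2.77, 3.09, 3.11 and 3.19 in WT and 3.65, 3.84, 3.91 and 3.51 in Ts1Cje. Again no WT array reached a Ts1Cje array. Mrps6 rose by 0.66 ± 0.11 in the mean of both muscles (limma adjusted p = 0.0187), with 0.63 ± 0.16 in the EDL and 0.69 ± 0.14 in the soleus.

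Among 7 metabolic enzymes, 6 were measured, all 6 were higher in both muscles, and Gart and Pigp were called. Gart carries out 3 steps of purine synthesis. EDL levels of Gart were 1.0, 0.75 and 0.86 in WT and 1.58, 1.40 and 1.28 in Ts1Cje. Soleus levels of Gart were 0.43, 0.66, 0.64 and 0.64 in WT and 1.2, 1.21, 1.32 and 1.21 in Ts1Cje. Its replicates lay close together and the genotypes were apart by more than their spread. Gart (chr16:91633742-91633801, mm9) rose by 0.64 ± 0.10 in the soleus (limma adjusted p = 0.0154) and by 0.60 ± 0.07 in the mean of both muscles (adjusted p = 0.00337), the smallest adjusted p of any member there. Its EDL change was 0.55 ± 0.11. A second Gart probe, at chr16:91624630-91624689, had a change of 0.37 ± 0.13 in the mean of both muscles (adjusted p over all kept probes = 0.449).

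Pigp is a subunit of the enzyme that starts glycosylphosphatidylinositol anchors. EDL levels of Pigp were 5.16, 4.92 and 4.92 in WT and 5.59, 5.44 and 5.55 in Ts1Cje. Soleus levels of Pigp were 4.39, 4.73, 4.52 and 4.63 in WT and 5.04, 5.23, 5.29 and 5.21 in Ts1Cje. Genotypes were apart in each muscle, and within a genotype the EDL stood above the soleus. Pigp (chr16:94586203-94586262, mm9) rose by 0.63 ± 0.10 in the soleus (limma adjusted p = 0.023), with 0.52 ± 0.12 in the EDL. A second Pigp probe, at chr16:94580645-94580704, had a change of 0.23 ± 0.16 in the mean of both muscles (adjusted p over all kept probes = 0.689). With the mean of both Pigp probes the calls were lost (limma adjusted p = 0.283 in the soleus and 0.262 in the mean of both muscles). Ttc3, a ubiquitin ligase that starts next to Pigp on the other strand, belongs to the protein turnover group. EDL levels of Ttc3 were 4.09, 4.21 and 4.18 in WT and 4.60, 4.59 and 5.04 in Ts1Cje. Soleus levels of Ttc3 were 3.55, 4.07, 3.78 and 3.81 in WT and 4.45, 4.20, 4.55 and 4.65 in Ts1Cje. All Ttc3 values of Ts1Cje were above those of WT. Ttc3 rose by 0.62 ± 0.11 in the mean of both muscles (limma adjusted p = 0.026), beside 0.57 ± 0.08 for Pigp.

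The other measured enzymes were not called. Cryzl1, a quinone oxidoreductase-like protein, had changes of 0.51 ± 0.16 in the EDL and 0.63 ± 0.14 in the soleus. Hlcs, which attaches biotin to carboxylases, had changes of 0.50 ± 0.19 and 0.47 ± 0.16. The carbonyl reductases Cbr1 and Cbr3, neighbours in the segment, had unequal estimates, 0.52 ± 0.22 and 0.66 ± 0.19 for Cbr3 and 0.22 ± 0.13 and 0.13 ± 0.12 for Cbr1. The 95% interval of the Cbr1 change in the mean of both muscles ran from -0.02 to 0.36, below the 3-to-2 proportion of 0.585, and that of Cbr3 from 0.27 to 0.91. The difference between these 2 genes was not tested. They are close paralogs, and whether their probes share signal was not tested.

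In the protein folding, insertion and turnover group, 5 of 7 members were measured. Psmg1 is a chaperone that helps build the proteasome core. EDL levels of Psmg1 were 2.95, 3.16 and 3.22 in WT and 3.58, 3.62 and 3.86 in Ts1Cje. Soleus levels of Psmg1 were 2.67, 2.94, 2.77 and 2.94 in WT and 3.59, 3.29, 3.49 and 3.59 in Ts1Cje. No WT array overlapped a Ts1Cje array. Psmg1 rose by 0.66 ± 0.11 in the soleus (limma adjusted p = 0.028), with 0.58 ± 0.13 in the EDL, and its 2 probes differed by 0.02 in the mean of both muscles. Setd4, a SET-domain methyltransferase, had changes of 0.66 ± 0.23 in the EDL and 0.70 ± 0.20 in the soleus, and Bace2, a protease related to the beta-secretase, changes of 0.74 ± 0.28 and 0.93 ± 0.25, neither called. Get1, part of the receptor that inserts tail-anchored proteins into the endoplasmic reticulum, had changes of 0.01 ± 0.20 and -0.37 ± 0.18, and its interval in the mean of both muscles, from -0.47 to 0.11, also lay below 0.585.

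Of 10 members that act in the nucleus or in cell division, 6 were measured and Donson was called. Donson is a component of the replication fork. EDL levels of Donson were -1.06, -1.50 and -1.45 in WT and -0.79, -0.66 and -0.27 in Ts1Cje. Soleus levels of Donson were -0.98, -1.49, -1.0 and -0.87 in WT and -0.48, -0.22, 0.10 and 0.63 in Ts1Cje. Ts1Cje values were spread over more than 1 log2 unit in the soleus but stayed above WT. Donson rose by 0.93 ± 0.17 in the mean of both muscles (limma adjusted p = 0.0431). The predicted gene Gm10785, which starts 170 bases away on the other strand, had changes of -0.14 ± 0.32 in the EDL and -0.30 ± 0.28 in the soleus. Paxbp1, which binds Pax factors of muscle precursors, had changes of 0.62 ± 0.19 and 0.71 ± 0.16, Urb1, a ribosome assembly factor, changes of 0.65 ± 0.28 and 0.85 ± 0.24, and Mis18a, which prepares centromeres, changes of 0.34 ± 0.27 and 0.36 ± 0.24.

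Ripply3, a transcriptional corepressor of embryonic development, had the highest estimate of any member in the soleus, 1.41 ± 0.32, with 1.03 ± 0.37 in the EDL. It was not called (limma adjusted p = 0.0759 in the mean of both muscles), although the lower bound of its interval, 0.68, was above 0.585. The remaining member of the group, Sim2, is taken up with the members whose probes disagreed.

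Among 10 membrane and signalling members, 7 were measured, and Eva1c and Smim11 were called. Eva1c is related to a worm receptor of the guidance cue Slit. EDL levels of Eva1c were -1.97, -1.65 and -2.08 in WT and -1.39, -1.63 and -0.85 in Ts1Cje. Soleus levels of Eva1c were -2.55, -1.83, -2.11 and -2.40 in WT and -1.29, -1.13, -0.93 and -1.21 in Ts1Cje. The genotypes were apart in both muscles, by little in the EDL. Eva1c (chr16:90904881-90904940, mm9) rose by 1.08 ± 0.19 in the soleus (limma adjusted p = 0.0358), beside 0.61 ± 0.22 in the EDL. Smim11 encodes a small integral membrane protein. EDL levels of Smim11 were 4.90, 5.17 and 5.08 in WT and 5.58, 5.47 and 5.89 in Ts1Cje. Soleus levels of Smim11 were 4.56, 4.98, 4.93 and 4.79 in WT and 5.52, 5.59, 5.68 and 5.51 in Ts1Cje. There was no overlap of genotypes. Smim11 rose by 0.76 ± 0.12 in the soleus (limma adjusted p = 0.0219), with 0.60 ± 0.14 in the EDL.

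The other 5 of this group were not called. Hunk, a kinase of the AMPK family, had changes of 0.44 ± 0.26 in the EDL and 0.63 ± 0.23 in the soleus. Pcp4, a small regulator of calmodulin, had changes of 0.56 ± 0.31 and 0.49 ± 0.27, and C2cd2, a C2-domain protein, changes of 0.50 ± 0.21 and 0.53 ± 0.19. Cldn14, a claudin of tight junctions, was lower in both muscles. EDL levels of Cldn14 were -0.50, 0.27 and -0.75 in WT and -0.54, -0.27 and -0.54 in Ts1Cje. Soleus levels of Cldn14 were -0.53, -0.70, -0.71 and -0.33 in WT and -1.61, -0.71, -0.66 and -0.40 in Ts1Cje. Its genotypes overlapped in both, and the changes were -0.12 ± 0.29 and -0.28 ± 0.26.

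Sh3bgr, an adaptor that is abundant in heart and skeletal muscle, was the only member of its group. EDL levels of Sh3bgr were 8.11, 8.30 and 7.79 in WT and 8.76, 8.52 and 8.53 in Ts1Cje. Soleus levels of Sh3bgr were 6.67, 6.78, 6.67 and 6.56 in WT and 7.39, 7.23, 7.35 and 7.33 in Ts1Cje. The genotypes were apart within a muscle and the muscles within a genotype. It rose by 0.66 ± 0.11 in the soleus (limma adjusted p = 0.0299) with a change of 0.54 ± 0.13 in the EDL. Its 2 probes differed by 0.02 in the mean of both muscles, but they overlap (chr16:96450476-96450535 and chr16:96450481-96450540, mm9) and are not independent readings. The cilium group had Cfap298, which is needed for ciliary beating, and Lca5l, a relative of lebercilin. EDL levels of Cfap298 were 3.78, 3.82 and 3.81 in WT and 4.34, 4.16 and 4.48 in Ts1Cje. Soleus levels of Cfap298 were 3.11, 3.30, 3.40 and 3.37 in WT and 3.88, 3.85, 3.82 and 4.07 in Ts1Cje. Again the genotypes were apart within a muscle and the muscles within a genotype. Cfap298 rose by 0.61 ± 0.10 in the soleus (limma adjusted p = 0.0246), with 0.52 ± 0.12 in the EDL.

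Among the 13 members called in the mean of both muscles, 8 stayed called in all 14 fits that left out 1 array. The other 5 did not: their limma adjusted p ran over 0.0163 to 0.0785 for Eva1c, 0.0249 to 0.133 for Donson, 0.0106 to 0.0695 for Mrps6, 0.0104 to 0.0872 for LOC102641578 and 0.0202 to 0.0836 for Ttc3. Eva1c and Ttc3 were lost in 10 of these fits, Donson and LOC102641578 in 12, and Mrps6 in 4. Each change stayed positive.

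**Figure D2:**
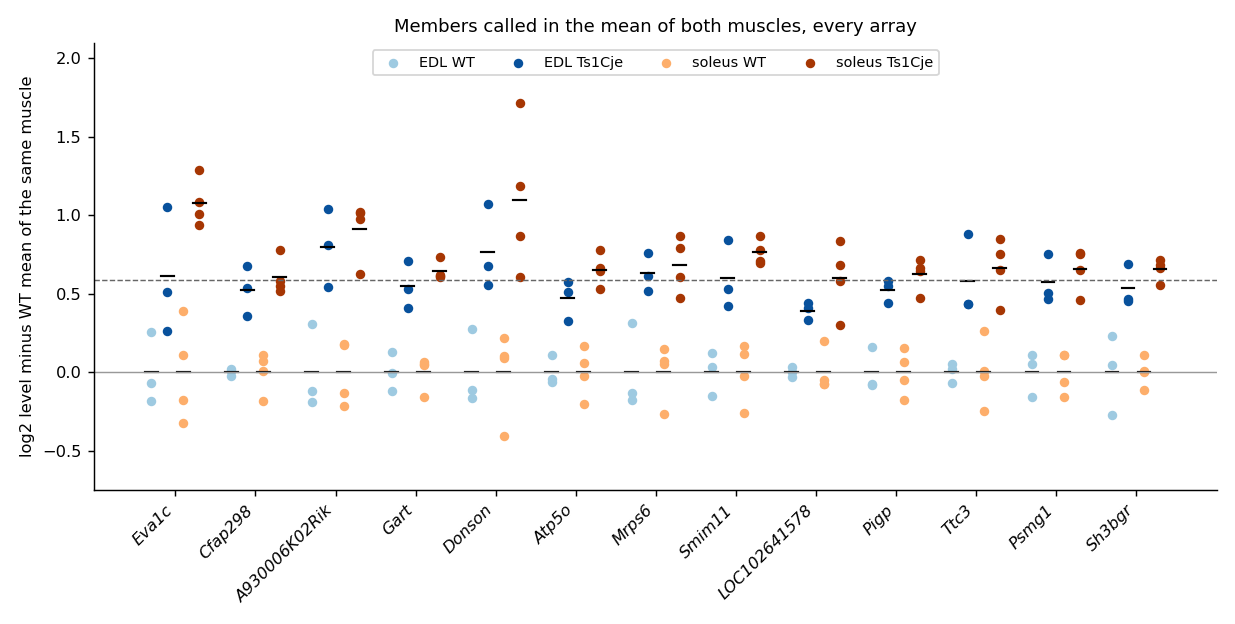
Log2 level of every array minus the WT mean of the same muscle (y axis) for the 13 members called in the mean of both muscles (x axis, in order along the segment), with points coloured by group and bars at group means. In each of the 13 members and in both muscles, all Ts1Cje points lie above all WT points, and most means lie near the dashed line at log2 of 3 over 2.

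Of 6 members of ion transport, Slc5a3 and Kcnj15 were measured, and neither was called. Slc5a3 is the sodium-coupled carrier of myo-inositol, an osmolyte. EDL levels of Slc5a3 were -2.86, -1.40 and -0.99 in WT and -0.68, -0.24 and -0.60 in Ts1Cje. Soleus levels of Slc5a3 were -1.93, -0.18, -0.22 and -0.28 in WT and -0.35, -0.73, -0.36 and 0.16 in Ts1Cje. WT replicate 1 was the lowest array in each muscle. Slc5a3 had changes of 1.24 ± 0.50 in the EDL and 0.33 ± 0.43 in the soleus, and both of its probes gave these values to within 0.06. Mrps6 starts 14 bases from Slc5a3, and its changes were 0.63 ± 0.16 and 0.69 ± 0.14. Without EDL WT replicate 1 the EDL change of Slc5a3 was 0.69, and without soleus WT replicate 1 its soleus change was -0.10. Kcnj15, an inward-rectifier potassium channel, was not well above background on any EDL array, so no change is given there, and in the soleus its change was -0.10 ± 0.16.

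Mx2, 1 of the 2 interferon-induced members, encodes an antiviral GTPase. It was well above background on 12 of 14 arrays and passed the filter only through the Ts1Cje groups, so its difference is not independent of the filter. It had changes of 0.93 ± 0.32 in the EDL and 1.22 ± 0.27 in the soleus (limma adjusted p = 0.145, not called). Beside it, of 14 measured interferon-stimulated genes elsewhere in the genome, 14 were higher in the EDL and 13 in the soleus, and 0 were called in any genotype comparison. Their summed signal was 12.7 to 13.5 in EDL WT, 13.3 to 21.9 in EDL Ts1Cje, 13.4 to 17.9 in soleus WT and 16.8 to 30.6 in soleus Ts1Cje. Whether the Mx2 values follow this shift or the copy number was not tested.

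The remaining members have no assigned group, and 11 of the measured ones are clones or predicted genes. Among these, A930006K02Rik and LOC102641578 were called. EDL levels of A930006K02Rik were -1.92, -2.35 and -2.42 in WT and -1.69, -1.19 and -1.42 in Ts1Cje. Soleus levels of A930006K02Rik were -2.12, -2.51, -2.43 and -2.11 in WT and -1.28, -1.27, -1.67 and -1.32 in Ts1Cje. These genotypes were apart in both muscles, and the clone rose by 0.91 ± 0.16 in the soleus (limma adjusted p = 0.0299), with 0.80 ± 0.18 in the EDL. EDL levels of LOC102641578 were 0.70, 0.73 and 0.76 in WT and 1.06, 1.17 and 1.14 in Ts1Cje. Soleus levels of LOC102641578 were 0.60, 0.58, 0.58 and 0.85 in WT and 1.34, 1.23, 1.49 and 0.95 in Ts1Cje. The genotypes of this clone were apart in both muscles, by little in the soleus. LOC102641578 rose by 0.50 ± 0.09 in the mean of both muscles (limma adjusted p = 0.0276).

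The other 9 clone or predicted genes were not called. Over all 11, 5 were higher in Ts1Cje in the EDL, with a median of -0.00, and 7 in the soleus, with a median of 0.075, beside medians of 0.52 and 0.63 for the 33 members with a gene name, of which 30 and 28 were higher. The 11 were also dimmer, with a median level of -1.65 beside 0.175. The part of signal level in this contrast was not tested. The changes in the EDL and the soleus were 0.07 and 0.27 for 1700048M11Rik, -0.12 and 0.07 for 1810053B23Rik, -0.00 and 0.12 for Gm9510, 0.33 and 0.07 for LOC102642943 and 0.38 and 0.78 for LOC102641028. The 4 that were lower in both muscles overlapped between the genotypes in both. EDL levels of Gm10785 were -2.27, -2.70 and -2.42 in WT and -2.48, -1.82 and -3.50 in Ts1Cje. Soleus levels of Gm10785 were -1.72, -1.90, -2.02 and -2.14 in WT and -2.52, -1.85, -2.16 and -2.43 in Ts1Cje. Here every array lay well below the array's 75th percentile. EDL levels of Gm7894 were -2.53, -2.19 and -3.02 in WT and -3.02, -2.30 and -3.41 in Ts1Cje, and its changes were -0.33 ± 0.27 and -0.12 ± 0.23. Soleus levels of Gm7894 were -1.94, -1.95, -2.27 and -2.05 in WT and -2.53, -2.06, -2.19 and -1.92 in Ts1Cje. Genotypes of 1700093J21Rik and 2310043M15Rik were just as mixed. EDL levels of 1700093J21Rik were -1.42, -1.69 and -1.99 in WT and -2.13, -1.39 and -2.33 in Ts1Cje, with a change of -0.25 ± 0.25. Soleus levels of 1700093J21Rik were -0.96, -1.33, -1.1 and -1.38 in WT and -1.66, -0.99, -0.99 and -1.47 in Ts1Cje, with a change of -0.08 ± 0.22. The values of 2310043M15Rik follow with the muscle comparison, and its changes were -0.23 ± 0.26 and -0.11 ± 0.22. Among members with a gene name, Dnajc28, a DnaJ-domain protein outside the groups, had changes of 0.52 ± 0.25 in the EDL and 0.10 ± 0.21 in the soleus.

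Intervals show which members are measured well enough to be set against the copy number. In the mean of both muscles, the 95% interval lay wholly above 0 for 27 of 44 members. It held 0.585 for 24 of these, and lay above it for Ripply3, Mx2 and A930006K02Rik. The latter are dim, with mean levels of -1.62, -1.83 and -1.84, and their estimates fell under 0.585 in some alternatives. The lowest change of A930006K02Rik in the mean of both muscles was 0.22. In the EDL and the soleus the lowest changes were 0.22 and 0.54 for Ripply3 and 0.24 and 0.32 for Mx2. For 14 members the interval held 0 and ended below 0.585: Mrap, Cbr1, Cldn14, Sim2, Kcnj15, Get1 and Lca5l among genes with a name, and 7 clone or predicted genes. The interval of Kcnj15 includes EDL values below background. The intervals of Mis18a, Dnajc28 and Gm9510 held both 0 and 0.585, and 0 of 44 lay wholly below 0. The choice of probe matters for Lca5l and Sim2, as shown next. These are intervals of single members, with no adjustment over the 44.

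Lca5l and Sim2 were 2 of 14 members with several measured probes, and the probes of these 2 went opposite ways by over 0.5. The Lca5l probe used in the fit, at chr16:96380699-96380758 (mm9), stood at 1.57, 1.51 and 1.48 in WT and 1.64, 1.80 and 1.47 in Ts1Cje in the EDL. In the soleus the same probe stood at 0.85, 0.80, 0.76 and 0.66 in WT and 0.23, 0.81, 0.39 and 0.48 in Ts1Cje, with overlap. It had changes of 0.12 ± 0.14 in the EDL and -0.29 ± 0.12 in the soleus. Another Lca5l probe lies before it, at chr16:96380013-96380072. EDL values of that probe were 0.10, -0.33 and 0.27 in WT and 0.53, 0.74 and 0.38 in Ts1Cje. Soleus values of that probe were -1.34, -0.50, -0.87 and -0.75 in WT and -0.18, -0.46, 0.07 and -0.40 in Ts1Cje. It had changes of 0.53 ± 0.22 in the EDL and 0.63 ± 0.19 in the soleus, and was not called (limma adjusted p over all kept probes = 0.229 in the mean of both muscles).

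Sim2 encodes a transcription factor of the bHLH-PAS family. Its probe in the fit, at chr16:94345122-94345181 (mm9), stood at 0.84, 0.55 and 0.68 in WT and 0.70, 0.67 and 0.38 in Ts1Cje in the EDL. In the soleus that Sim2 probe stood at 1.11, 0.70, 0.69 and 1.02 in WT and 0.62, 0.72, 0.48 and 0.63 in Ts1Cje, with overlap, and it had changes of -0.11 ± 0.14 and -0.27 ± 0.12. The second Sim2 probe, at chr16:94348458-94348517, was well above background on 1 of 3 EDL WT arrays and 0 of 3 EDL Ts1Cje arrays, and on all 8 soleus arrays. Soleus values of this second probe were 2.09, 2.14, 2.07 and 2.05 in WT and 2.61, 3.08, 2.96 and 2.67 in Ts1Cje. There the WT arrays lay close together and all Ts1Cje arrays were above them. The change in the soleus was 0.74 ± 0.28 (limma adjusted p over all kept probes = 0.322). With the lowest signals well above background in place of its EDL Ts1Cje values, the second probe was 50.7-fold brighter in soleus Ts1Cje than in EDL Ts1Cje. The fitted difference had a limma adjusted p over all kept probes of 1.21e-07. This probe passed the filter only through the soleus, where it is high, so its difference between the muscles is not independent of the filter. The first probe was not called between these groups (limma adjusted p = 0.884). The other 12 members with several probes had gaps of 0.01 to 0.34 between them in the mean of both muscles. No gene model of mm9 was used, so which exon or transcript end each probe reads is not given.

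**Figure D3:**
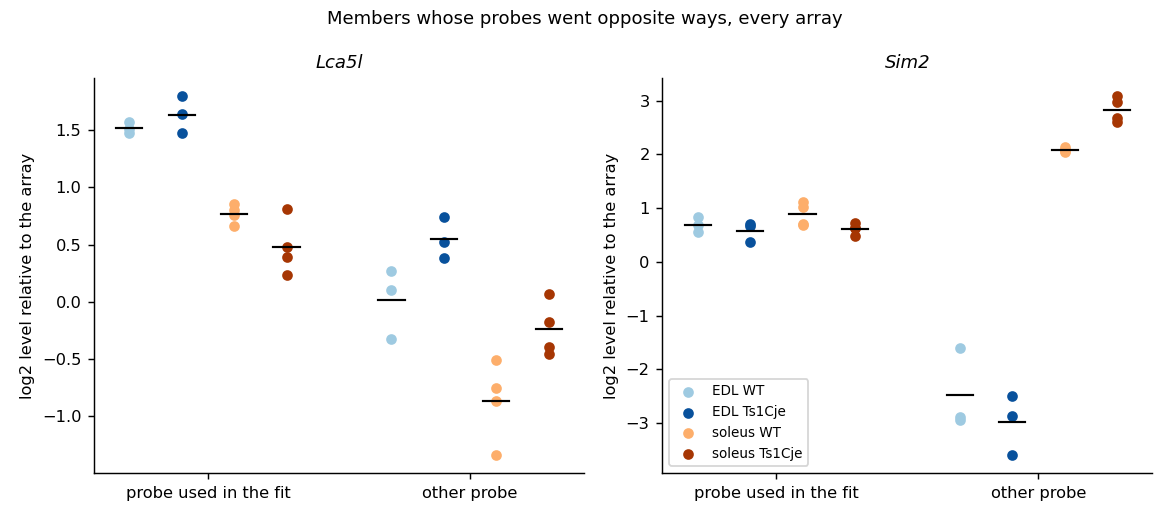
Log2 level relative to the array (y axis) of the probe used in the fit and of the other probe, for Lca5l (left) and Sim2 (right), with a point per array coloured by group and bars at group means. The other Lca5l probe is higher in Ts1Cje in both muscles, unlike the probe of the fit, and the other Sim2 probe lies near 2 to 3 in the soleus and below -1.5 in the EDL.

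The second comparison asked whether a member's change differed between the muscles. None of the 44 members was called for the difference of the genotype effects, where 0.0% of all genes were called, and 1 member (Lca5l) had an unadjusted p under 0.05 against 454 of all 14158 genes. Levels were higher in Ts1Cje in both muscles for 32 members, lower in both for 6, and of opposite sign for 6. Over members, the changes in the EDL and the soleus had a Pearson correlation of 0.79 and a Spearman correlation of 0.85, given as a description over 44 genes that share the same 14 arrays. Without Slc5a3 and Mrap the Pearson correlation was 0.904. The soleus change was the larger one for 32 of 44 members, while the median change over all genes was 0.00 in the EDL and 0.07 in the soleus. Gaps were widest for Slc5a3, 0.91 higher in the EDL, and Mrap, 0.79 lower there, which had the highest SE of the members.

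**Figure D4:**
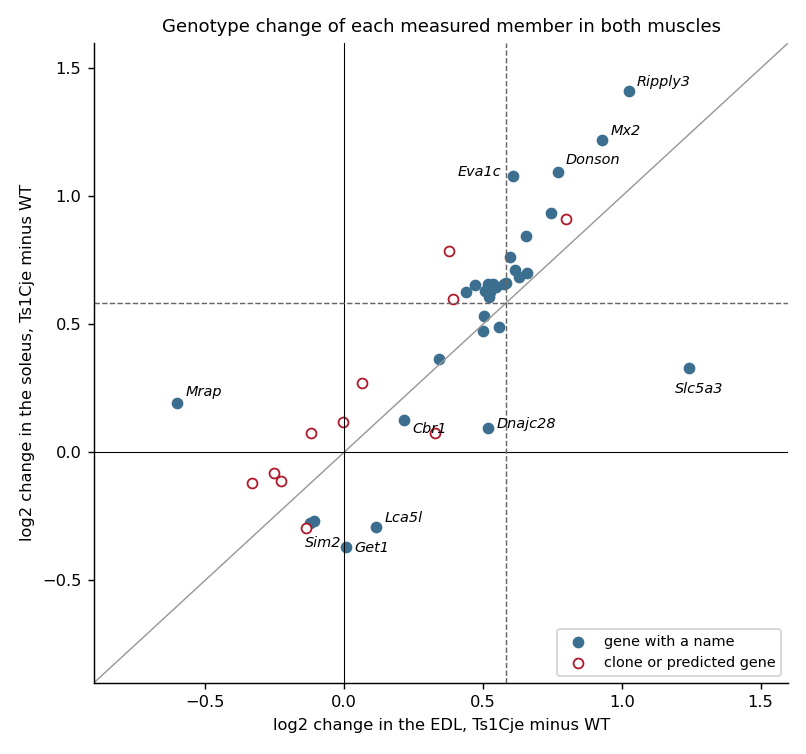
Log2 change in the soleus (y axis) against log2 change in the EDL (x axis), both Ts1Cje minus WT, for 43 measured members (Kcnj15 not shown), with the line of equal change and dashed lines at log2 of 3 over 2. Genes with a name gather near the crossing of the dashed lines, most clone or predicted genes lie near 0, and Slc5a3 and Mrap stand farthest from the line of equal change.

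The third comparison asked which members differ between a fast and a slow muscle. In WT 9 of 44 members were called, 5 higher in the EDL and 4 lower, where 29.8% of all genes were called. In Ts1Cje 13 were called, 6 higher and 7 lower, where 29.9% of all genes were called. No difference between these shares was tested. Sh3bgr was 2.64-fold higher in the EDL in WT (log2 1.40 ± 0.12, limma adjusted p = 6.51e-06) and 2.43-fold in Ts1Cje. C2cd2 was higher in the EDL by log2 1.53 ± 0.20 in WT (limma adjusted p = 0.00013). EDL levels of C2cd2 were 2.50, 2.55 and 2.04 in WT and 3.04, 2.87 and 2.68 in Ts1Cje. Soleus levels of C2cd2 were 1.14, 0.81, 0.83 and 0.56 in WT and 1.05, 1.83, 1.45 and 1.14 in Ts1Cje. The muscles were apart, and the genotypes overlapped in the soleus. Lca5l was higher in the EDL by 0.75 ± 0.13 in WT and 1.16 ± 0.13 in Ts1Cje, also with its other probe, Cfap298 by 0.50 ± 0.11 and 0.42 ± 0.11, and Pigp by 0.43 ± 0.11 and 0.33 ± 0.11. All 5 were called in both genotypes, except that Pigp in Ts1Cje was not called with the mean of its probes.

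Bace2 was lower in the EDL, with a log2 difference of -0.82 ± 0.27 in WT and -1.01 ± 0.27 in Ts1Cje, and was called in both. EDL levels of Bace2 were -0.18, 0.46 and 0.61 in WT and 0.91, 1.1 and 1.11 in Ts1Cje. Soleus levels of Bace2 were 0.36, 1.08, 1.33 and 1.69 in WT and 2.32, 1.92, 2.06 and 1.88 in Ts1Cje. In Ts1Cje each array was above each WT array of its muscle, and the muscles overlapped in WT but not in Ts1Cje. Mrap, an accessory protein of melanocortin receptors, was lower in the EDL, with a log2 difference of -1.66 ± 0.49 in WT and -2.46 ± 0.49 in Ts1Cje, also called in both. EDL levels of Mrap were -2.39, -2.72 and -0.94 in WT and -3.39, -2.38 and -2.07 in Ts1Cje. Soleus levels of Mrap were -1.02, -0.19, 0.49 and -0.69 in WT and 0.52, -0.49, 0.21 and -0.88 in Ts1Cje. Mrap was well above background on 2 of 3 arrays of each EDL group and on all soleus arrays, so it passed the filter only through the soleus. Its difference between the muscles is therefore not independent of the filter, and 1 EDL value of each genotype was not well above background. Within each group the Mrap arrays spread over more than 1 log2 unit. Mrap is also known to be expressed in adipocytes. The summed signal of 7 measured adipocyte markers (Lep was not measured) was 120 to 230 in the EDL and 191 to 293 in the soleus. The median log2 difference of these markers (EDL minus soleus) was -1.82 in WT and -2.99 in Ts1Cje. In WT 2 of the 7 were called lower in the EDL and 1 stood higher, and in Ts1Cje 6 were called lower. Over all genes 29.8% and 29.9% were called in either direction. The part of fat cells in the Mrap values was not tested.

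The clone 2310043M15Rik was lower in the EDL, with a log2 difference of -0.75 ± 0.24 in WT and -0.86 ± 0.24 in Ts1Cje. EDL levels of 2310043M15Rik were -0.19, -0.55 and -0.54 in WT and -0.73, -0.77 and -0.46 in Ts1Cje. Soleus levels of 2310043M15Rik were 0.44, 0.50, 0.22 and 0.11 in WT and -0.54, 0.21, 0.78 and 0.38 in Ts1Cje. It overlapped between the muscles only through soleus Ts1Cje replicate 1, which lay on the slide of the EDL arrays, and with the slide as a block the difference in WT was 0.24. EDL levels of Kcnj15 were -3.32, -3.00 and -2.88 in WT and -2.87, -2.50 and -3.27 in Ts1Cje. Soleus levels of Kcnj15 were -2.36, -2.23, -2.12 and -2.32 in WT and -2.30, -2.16, -2.36 and -2.62 in Ts1Cje. Kcnj15 was well above background on 0 of 6 EDL arrays, 3 of 4 soleus WT arrays and 4 of 4 soleus Ts1Cje arrays, so it passed the filter only through soleus Ts1Cje, a group where it is high, and its difference between the muscles, counted among the 9 and the 13, is not independent of the filter. With the lowest signals well above background in place of its EDL values, Kcnj15 was 1.5-fold higher in the soleus in WT and 1.39-fold in Ts1Cje. These are not firm bounds, because EDL Ts1Cje replicate 2 (-2.50) lay above soleus Ts1Cje replicate 4 (-2.62). With normexp the fitted differences were 0.01 and 0.07 and of the other sign. In Ts1Cje, Dnajc28 was also called, with 0.90 ± 0.23 (EDL minus soleus), as were Ripply3 with -1.06 ± 0.35, Gm7894 with -0.74 ± 0.25 and 1700093J21Rik with -0.67 ± 0.24. Ripply3 was well above background on 2 of 3 EDL WT arrays, and Gm7894 on 1 of 3 EDL Ts1Cje arrays. In WT the differences of these 4 were 0.47 ± 0.23, -0.68 ± 0.35, -0.53 ± 0.25 and -0.50 ± 0.24, and the difference between the genotypes was called for 0 of them. All 6 EDL arrays and soleus Ts1Cje replicate 1 shared slide 1, and the other soleus arrays were on slide 2, scanned on another date. Muscle and slide therefore coincide in WT, and a slide block separates them only through that 1 soleus array. With the slide as a block 3 members were called in WT and 5 in Ts1Cje. With normexp 4 and 8 were called, and in Ts1Cje 6 without EDL replicate 1. Shares over all genes under these alternatives are not given, so whether the fall in calls is particular to the members cannot be told.

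**Figure D5:**
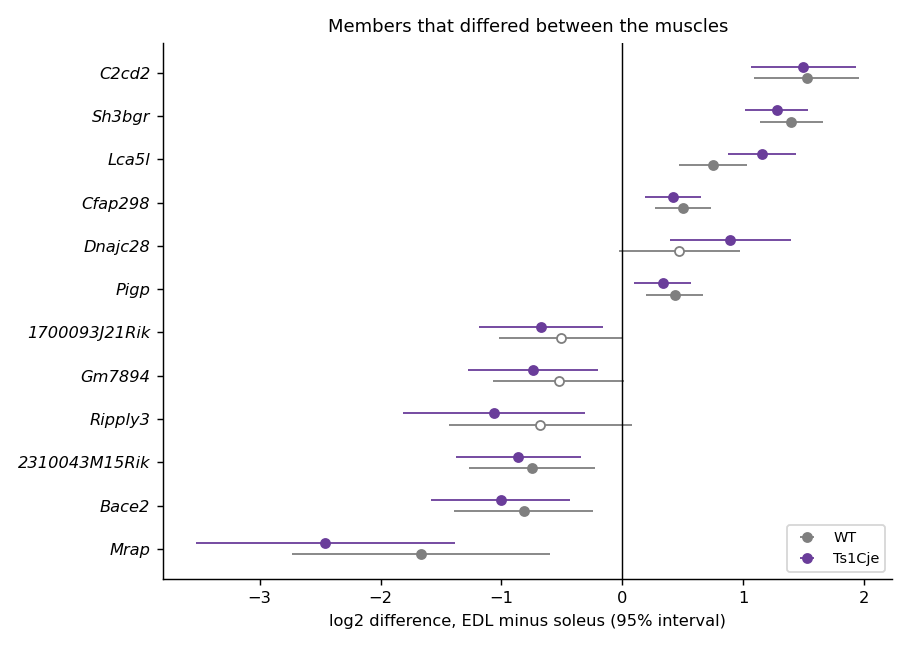
Log2 difference between the muscles (EDL minus soleus, x axis) with 95% intervals for 12 members called in WT or in Ts1Cje (y axis), in WT (grey) and Ts1Cje (purple), with filled points where the limma adjusted p was under 0.05. Kcnj15, which was below background in the EDL, is not shown. C2cd2 and Sh3bgr lie farthest to the right and Mrap farthest to the left, and the WT and Ts1Cje intervals overlap for each member.

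Partners of members, genes elsewhere that work in the same complex or pathway, were read from 8 lists. Of 86 partners 80 were measured, and 0 were called in the EDL, the soleus or the mean of both muscles, with 1, 13 and 3 at an unadjusted p under 0.05, beside 408, 1929 and 1342 of all 14158 genes. Their median changes were -0.00, 0.12 and 0.06, beside 0.00, 0.07 and 0.03 over all genes. All 16 measured subunits and regulators of ATP synthase, partners of Atp5o, lay between -0.05 and 0.16 in the mean of both muscles, with Atp5k at 0.16 ± 0.08 and Atp5d at 0.10 ± 0.07. The 28 small mitochondrial ribosomal proteins other than Mrps6 lay between -0.05 and 0.16, with Mrps18c at 0.16 ± 0.07 and Mrps30 at 0.14 ± 0.07. Of 11 measured purine synthesis genes besides Gart, Pfas stood at -0.23 ± 0.11 and Prps1 at 0.14 ± 0.08.

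Among 7 measured proteasome assembly genes besides Psmg1, Psmg4 stood at 0.28 ± 0.14 and Pomp at 0.18 ± 0.07. The 6 genes of the first step of anchor synthesis included Pigh at -0.72 ± 0.26 and Pigyl at 0.14 ± 0.08, beside 0.57 ± 0.08 for Pigp. In the insertion of tail-anchored proteins, Ubl4a stood at 0.13 ± 0.07 and Sgta at 0.13 ± 0.06. In the myo-inositol list Impa2 stood at 0.20 ± 0.14 and Isyna1 at 0.14 ± 0.11, and of 4 genes of centromere loading only Cenpa was measured, at 0.03 ± 0.25. The difference between a member and its partners was not tested.

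Genes on either side of the rule give a scale for the members. The 20 genes of the segment that were left out were all measured, 20 were higher in the EDL and 19 in the soleus, with medians of 0.48 and 0.66, and 12 were called in the mean of both muscles. The 20 measured genes nearest before the segment had medians of -0.04 and -0.08. Among these, Sod1 was called higher in the mean of both muscles and Gm34566 lower, both named after their values were seen.

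Not measured were 26 members: Dscam, Kcnj6, Kcne1, Kcne2, Clic6, Olig1, Olig2, Prdm15, Zbtb21, Tmprss2, Ripk4, B3galt5, Igsf5, Itgb2l, Fam3b, Fam243, Mx1 and 9 clone or predicted genes. Of the 92 probes of the members, 27 were below background on all 14 arrays. Such probes show that no signal was detectable at this sensitivity, and their change with copy number cannot be read from these arrays.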

How the data were processed

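RNA of 14 muscle samples was hybridised to 1-colour Agilent arrays, and the authors deposited 1 scanner file per array with background-subtracted, spatially detrended spot intensity (Agilent Feature Extraction, mm9 positions, per the file headers; the submitters' processing notes name version 9.1, a different version from the headers). A deposited log2 table, scaled to each array's 75th percentile and centred per probe as its values show, gave symbols and positions and served as an alternative; its correlation with the values computed here was at least 0.9999 on every array. Spots of a probe were averaged, and log2 intensity minus the array's 75th percentile was taken as the level. Probes that were well above background on all arrays of 1 group or more were kept (25190), and each gene was represented by its kept probe of highest mean. Symbols were updated for 2214 probes through RefSeq tables, which named 32002 of the 33822 probes with a symbol. limma 3.58.1 in R 4.3.3 fitted 1 mean per group over all 14 arrays (10 residual degrees of freedom), and p-values were adjusted by Benjamini-Hochberg over 14158 genes, or over all kept probes where said. Probes of several transcripts or of overlapping and antisense genes cannot be assigned further.

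The members, the partner and marker lists and the tests were chosen with earlier results of these data known. Every measured member was named. Array values were given for called members, for up to 8 members with the largest WT difference called between muscles, for members lower in both muscles and for members with opposed probes, and from each partner list the 2 genes of smallest p were named, since 0 were called. Replicate numbers were checked for pairing, because the series describes pairs of Ts1Cje and littermate muscles without saying that a number marks a pair. In the EDL same-numbered WT and Ts1Cje arrays deviated together (r = 0.401, 0.117 and 0.314), and in the soleus they did not. Soleus arrays of different numbers reached r = 0.43 (WT replicate 1 with Ts1Cje replicate 2), so such values do not show that a number marks a pair. A block of the EDL numbers alone was therefore run only as an alternative. Blocking the EDL numbers changed 0 EDL calls. On simulated data, 200 of 14158 genes were changed 1.5-, 2- or 4-fold. The fit called 28.4% of genes changed 1.5-fold in the EDL, 44.8% in the soleus and 74.6% in the mean of both muscles. The larger changes ease the adjustment of p, with 130 genes called in the simulated EDL. In the real EDL 1 gene was called higher, so these shares do not carry over to the real data.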

Additional observations from a re-analysis of the deposited data

Results flagged for a closer look

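In 6 of 88 groups of 4 soleus arrays, 1 array stood apart from the other 3 by more than Dixon's critical share of the group's range, where chance gives about 1 in 20. Of these, 3 fell on soleus WT replicate 1. There Slc5a3 stood at -1.93 against -0.28 to -0.18 on the other WT arrays, Gart at 0.43 against 0.64 to 0.66, and 1810053B23Rik at -0.77 against -0.55 to -0.52. Soleus Ts1Cje replicate 3 held A930006K02Rik at -1.67 against -1.32 to -1.27, and Gart at 1.32 against 1.2 to 1.21. On soleus WT replicate 4, LOC102641578 stood at 0.85 against 0.58 to 0.60. Groups of 3 EDL arrays were not examined in this way.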

How the results depend on the processing

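The 9 members called in the soleus and the 13 called in the mean of both muscles were higher in Ts1Cje under every alternative that was run. These members were picked as higher on the same arrays that the alternatives reuse. Their sign was therefore close to fixed in advance and is no separate support. Counts of 0 called members in the EDL and for the difference of the genotype effects, and 0 called unnamed probes, held under every alternative. The soleus count of 9 became 2 with normexp, 3 with the slide as a block, and 0 with no filter on dim probes, with a replicate block, within slide 2 and with the muscle fitted alone, and it ran from 0 to 10 when 1 array was left out. The count of 13 in the mean of both muscles became 6 with normexp, 8 with no filter and 1 with the replicate block, where 0 of the 13 stayed called, and ran from 8 to 13. The replicate block also covers the soleus, whose same-numbered arrays did not deviate together (r = -0.122, -0.295, 0.0104 and -0.135). With the replicate block in the EDL alone, chosen after seeing the data, the counts were 8 and 13, with 7 of the 9 and 10 of the 13 still called. Between the muscles the WT count of 9 became 4 with normexp and 3 with the slide block (6 to 11 without 1 array), and the Ts1Cje count of 13 became 8 and 5 (6 to 13 without 1 array). Counts under the alternatives stand without the share over all genes. The EDL median became 0.24 with normexp and 0.31 with no filter (0.42 to 0.51 without 1 array), and the soleus median 0.24 and 0.11 (0.55 to 0.61). Opposed probes were found for 1 member where all 14 arrays had to be well above background, and for 2 to 3 without 1 array.

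Values that turned sign belonged to members that were not called for genotype and to Cenpa. With the slide block, 1700093J21Rik was at 0.0038 between muscles in WT and 0.0442 in the soleus, and 2310043M15Rik at 0.2431 and 0.1366. Values within slide 2 were the same in the soleus, where Mrap was at -0.0341. With array weights 2310043M15Rik was at 0.0386 in the soleus. Normexp gave Gm9510 0.0879 in the EDL, Kcnj15 0.0062 in WT and 0.0679 in Ts1Cje between muscles, Ripply3 0.0040 in WT, and Cenpa -0.0413. Cenpa was at -0.0626 with the slide block and -0.0649 with array weights. Quantile normalization gave Gm9510 0.0003 in the EDL and Kcnj15 0.0115 in the soleus. The mean of a gene's probes gave Lca5l 0.1675 and Sim2 0.2377 in the soleus. When 1 array was left out, values in the EDL ran from -0.0319 to 0.1821 for 1700048M11Rik, from -0.3366 to 0.1749 for Cldn14, from -0.5266 to 0.3129 for Gm10785, from -0.2037 to 0.1867 for Gm9510 and from -0.1049 to 0.1808 for Get1. In the soleus they ran from -0.0122 to 0.2779 for Dnajc28, from -0.2021 to 0.4089 for Gm9510, from -0.0352 to 0.1459 for LOC102642943, from -0.0341 to 0.4734 for Mrap, from -0.0973 to 0.4875 for Slc5a3, from -0.1797 to 0.0442 for 1700093J21Rik and from -0.3015 to 0.1366 for 2310043M15Rik. Cenpa ran from -0.1358 to 0.1488. The cause was not tested. Signal over background limits the dim members, for which normexp gives smaller changes.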

Other observations

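The segment also carries 56 probes without a gene symbol, of which 18 were measured. For these the change had a median of 0.02 (EDL), -0.22 (soleus) and -0.10 (mean of both muscles), and limma called 0 in each, with 0, 5 and 3 at an unadjusted p under 0.05. In the soleus 6 of the 18 were higher in Ts1Cje, beside 35 of 44 members. Other probes without a name were not examined.

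Members that were called had higher signals and smaller errors than the others. The median level of the 13 called in the mean of both muscles was 3.33 and the median SE of their change 0.0862, beside -0.72 and 0.168 for the 31 that were not called. Over the 44 members the mean level had a Spearman correlation of -0.663 with the SE and of 0.164 with the change itself, as a description over genes measured on the same arrays.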
